A study of Drosophila melanogaster with 2 samples.

Results

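The 10 germline determinant genes described here, vas, nos, osk, pgc, aub, piwi, bam, bgcn, zpg and tud, were taken by name from 13945 protein-coding genes on the 6 main chromosomes of the fly, and all 10 were found in the annotation. A region was assigned to a gene when its summit lay in the gene body or within 5 kb of it on either side, and regions were ranked by the authors' signal value. The data are ChIP-seq region lists for Gcm2, a transcription factor of the glial cells missing family. Chromatin came from whole Drosophila melanogaster embryos of mixed sex, collected 0 to 24 h after laying, of a stable transgenic line (gcm2-GFP) that makes Gcm2 with GFP at its C terminus. The precipitation used an antibody against GFP on chromatin sheared to between 200 and 800 bp. There is 1 group with 2 libraries, named biological replicates 2 and 3, and no library without the tag was analysed here.

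The fly germline is set aside at the posterior pole of the egg, where Oskar gathers Vasa, Tudor and other proteins into germ plasm, and the pole cells that bud off there inherit it. Nanos and Pgc keep the young germ cells from taking up somatic programmes, Aubergine and Piwi are Argonaute proteins loaded with piRNAs, and Bam, Bgcn and the gap junction protein Zpg act later, when germ cells survive and differentiate in the gonad. Gcm2 and its paralog Gcm are known from glial and blood cell development. Most of these germline products are supplied to the egg by the mother, and germ cells are a small fraction of the cells of a whole embryo. In such material a region seen in few cells and a weak region seen in many cells cannot be told apart, and no signal can be assigned to germ cells.

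Of the 10 genes, 5 (vas, nos, aub, bam and bgcn) had at least 1 summit of the list retained by the irreproducible discovery rate (IDR) in or near them, against 30.4% of all protein-coding genes. These 5 genes had 6 such summits in all, and 5 of the 6 lay closer to the transcription start site (TSS) of another coding gene. The sequences of 5 regions are shown as examples. Each is, for its gene, either the strongest region of the window or the one at the gene's own promoter. Each lies at a promoter that belongs to, or is shared with, another gene. Other regions that meet this description, such as those at eIF6 and RpL9, are not shown. They were read from the RefSeq Release 6 (dm6) genome on the plus strand, up to 100 bp on each side of the summit and without untranslated bases, and capitals mark the 11 bases centred on the summit, fewer where the printed stretch ends.
bam window, RpS27 and Nup37 promoter, chr3R:25247515-25247618: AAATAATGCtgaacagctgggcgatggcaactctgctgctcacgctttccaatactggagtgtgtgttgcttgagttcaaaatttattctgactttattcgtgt
nos window, Nsun5 and CG42359 promoter, chr3R:19162301-19162485: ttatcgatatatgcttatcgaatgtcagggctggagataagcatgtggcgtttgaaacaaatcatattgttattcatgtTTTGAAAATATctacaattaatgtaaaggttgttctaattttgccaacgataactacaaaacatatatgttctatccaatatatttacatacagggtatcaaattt
osk window, pyd promoter, chr3R:8931897-8932069: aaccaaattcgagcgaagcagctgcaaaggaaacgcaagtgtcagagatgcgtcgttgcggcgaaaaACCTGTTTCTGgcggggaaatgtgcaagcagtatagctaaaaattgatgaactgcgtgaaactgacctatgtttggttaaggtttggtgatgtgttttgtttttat
zpg promoter, facing Rexo5, chr3L:6606033-6606173: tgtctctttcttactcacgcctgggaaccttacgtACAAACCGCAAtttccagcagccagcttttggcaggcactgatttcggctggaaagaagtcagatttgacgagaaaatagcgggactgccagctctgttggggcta
vas promoter, also that of solo, chr2L:15061462-15061655: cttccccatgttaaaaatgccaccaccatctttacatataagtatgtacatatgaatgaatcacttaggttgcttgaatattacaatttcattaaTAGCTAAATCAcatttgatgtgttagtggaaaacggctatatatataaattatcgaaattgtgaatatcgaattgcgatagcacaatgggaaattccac
These stretches ranged in GC content from 29.2% in the nos window to 50.4% at zpg. None holds a GCM octamer (ATACGGGC, ATACGGGT, ATGCGGGC or ATGCGGGT on either strand). The stretch of the nos window begins, at its second base, with the DNA replication-related element (DRE) TATCGATA, at chr3R:19162302-19162309.

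Every one of the 10 genes had at least 1 pooled candidate, compared with 86.3% of all protein-coding genes. At a deposited q-value of at most 0.05 the number was 8, all but pgc and piwi, against 58.5%. Within 500 bp of their own TSS, 7 genes (vas, tud, nos, aub, bam, bgcn and zpg) had a pooled candidate, against 53.3%. An IDR summit that close was found at 1 gene, bgcn, against 10.8%, and bgcn was also the only member with one within 1 kb, against 12.7%. The count at the members' own promoters with an IDR summit, 1 of 10, was thus near the share of all genes. Members among the 2177 strongest regions of both replicates' own lists numbered 4 (vas, nos, bam and bgcn), against 24.0%.

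The pooled list gave 67 candidates in the 10 windows, and the lists of replicates 2 and 3 gave 68 and 59. The windows had a median length of 13.5 kb and a median of 6.5 pooled candidates, and over all genes these medians were 12.2 kb and 5. Of the 67, 35 lay within 500 bp of any TSS (32.9% of all pooled candidates did), but 8 lay within 500 bp of a TSS of the member itself. The others fell in introns (16), coding exons (12), 3' UTRs (2) and between genes (2). A member's TSS was the nearest coding TSS for 13 of the 67, and 18 summits lay inside a member's gene body. A deposited q-value of at most 0.05 was given for 22 of the 67, against 22.7% of all candidates. Summits within 100 bp were found in replicate 2 for 45, in replicate 3 for 34 and in both for 21, against 33.9% of all candidates matched in both.

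**Figure D1:**
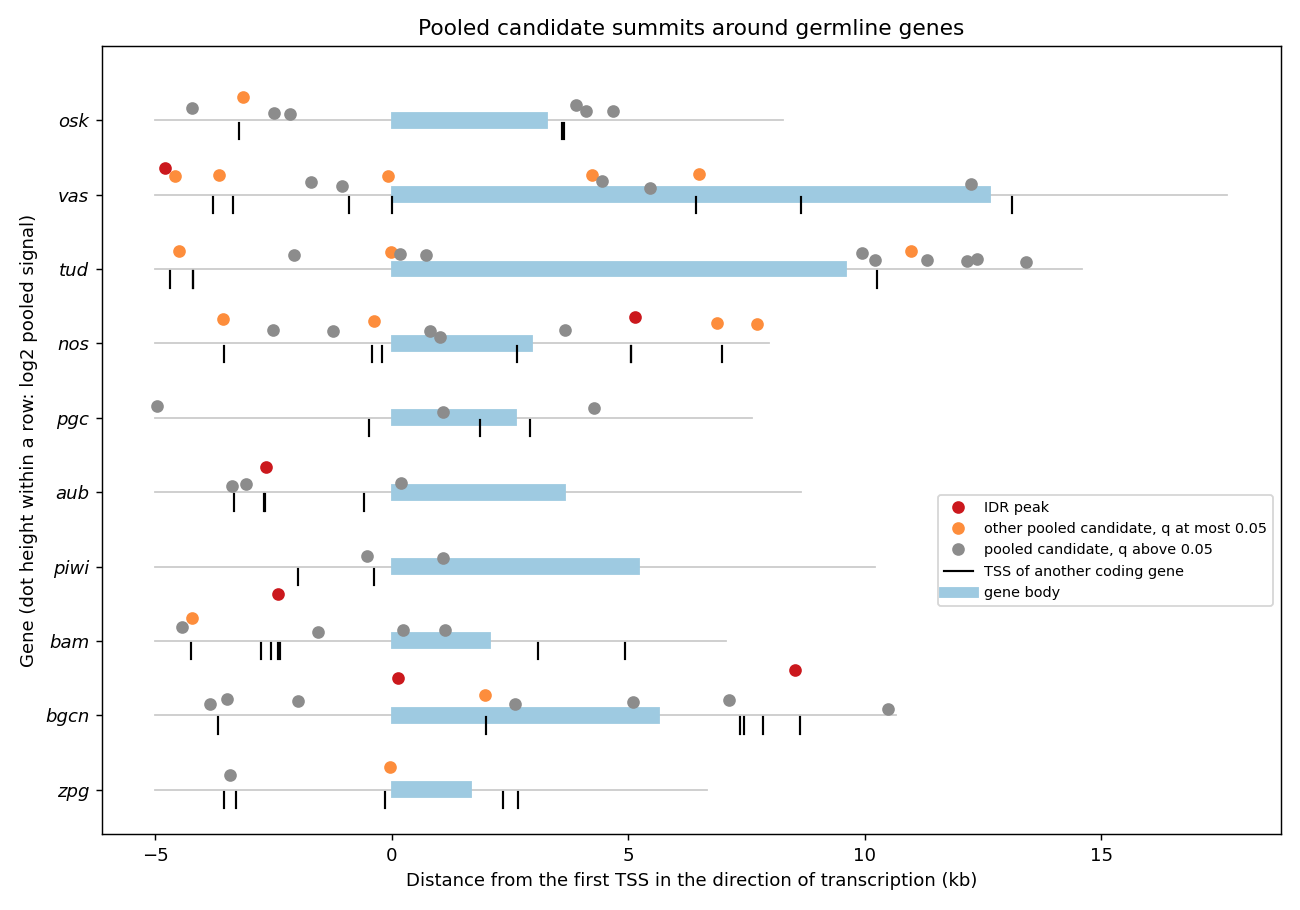
Each row is a gene, and each dot is the summit of a pooled candidate at its distance in kb from the gene's first TSS, in the direction of transcription; dot height within a row follows the log2 pooled signal. Blue bars are gene bodies, black ticks TSSs of other coding genes, red dots the 6 IDR summits, and orange and grey dots candidates with q of at most 0.05 and above it. Only the bgcn row has a red dot at its own start, and the red dots of nos, aub and bam and the other one of bgcn sit at ticks.

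In the IDR list the signal ran from 57.8 to 1029 with a median of 82.4, and its 2177 regions were the strongest of the 30000 pooled candidates, whose median was 20.5. Signal values are the authors' own, 1 per region, with no error of their own, so the spread is given by the values of the 2 replicates. The region ranked 2177 had a signal of 31.2 in replicate 2 and 28.8 in replicate 3, and these values serve below as a yardstick for each replicate. Read depth is unknown.

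Among the germ plasm genes, osk, which encodes the protein that nucleates germ plasm (chr3R:8935126-8938395), had no IDR summit and no pooled candidate in its body or within 500 bp of its TSS. Its 7 pooled candidates all flanked it, and 1 had a q-value of at most 0.05. That one (chr3R:8931737-8932200, signal 52.0, rank 2661, q = 1.63e-04) lay 73 bp from the TSS of pyd, which encodes a cell junction scaffold, and 3157 bp upstream of the osk TSS. Its signal was 22.1 (rank 4239) in replicate 2 and 30.1 (rank 2006) in replicate 3. It thus stood above the yardstick in replicate 3 and below it in replicate 2, and in the pooled list it missed the IDR list by rank. The next candidate, with signal 29.0 and rank 7733, lay in an intron of ScsbetaA, a gene of the citric acid cycle, 267 bp from its TSS. Replicate 3 alone had a candidate at the osk promoter, with a signal of 7.87 at rank 27962 of 30000. Inside the osk body, replicate 2 had candidates with signals of 13.0 (rank 11950) and 7.68 (rank 29427). There replicate 3 had a candidate with a signal of 8.16 (rank 26512). None of these body candidates had a summit within 100 bp in the other replicate. The annotation places the start of the antisense RNA asRNA:CR44020 161 bp from the osk TSS and that of lncRNA:osk 590 bp from it.

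The gene vas, which encodes the DEAD-box RNA helicase Vasa (chr2L:15061656-15074311), had 11 pooled candidates, 6 of them with a q-value of at most 0.05. Its IDR region (chr2L:15056615-15057078, signal 65.3, rank 1695) lay 4809 bp upstream of vas, near the edge of the window, in an intron of ck, a myosin gene, 1015 bp from the nearest coding TSS, that of ck. The signal there was 30.1 (rank 2347) in replicate 2 and 24.9 (rank 2921) in replicate 3. At these matched summits both replicates were therefore below their own yardstick. Replicate 3 also had a region overlapping the IDR region (chr2L:15056439-15056894), with a signal of 30.5 (rank 1950), above its yardstick. Its summit was more than 100 bp away and so was not matched. The vas promoter is the same TSS as that of solo, a gene needed for sister chromatid cohesion in meiosis that shares the locus, and TfIIS, a transcription elongation factor gene, starts 899 bp away on the opposite strand. The candidate at this promoter (chr2L:15061330-15061793, summit 94 bp upstream of the TSS) had a pooled signal of 37.1, rank 4920 and q = 0.0129. In replicate 2 it had a signal of 20.4 (rank 4959) and in replicate 3 a signal of 16.4 (rank 6829), below the yardstick in both.

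Inside vas, vig, a gene nested on the opposite strand in a vas intron, had a candidate 66 bp from its own TSS (chr2L:15067912-15068375) with a pooled signal of 43.4 at rank 3699. The replicates differed there. Replicate 2 gave a signal of 31.2 (rank 2175) and replicate 3 a signal of 12.5 (rank 12158). A further intronic candidate (chr2L:15065657-15066120, signal 39.1, rank 4462) had no summit within 100 bp in either replicate, although replicate 3 had one with signal 27.7 (rank 2351) at chr2L:15065537-15065992. The region in replicate 2 that brought vas into the count of genes with a strong region in both replicates was that of vig. In replicate 3 it was the one in the ck intron that overlaps the IDR region (signal 30.5, rank 1950). For vas that count thus rested on different positions.

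The gene tud, which encodes the Tudor-domain scaffold of germ plasm (chr2R:21183322-21192913), had the most pooled candidates of the 10 genes, 12, and none in the IDR list. Its strongest (chr2R:21178579-21179042, signal 35.3, rank 5357, q = 0.0188) lay at the start of CG4286 and of Pu, which encodes the GTP cyclohydrolase of pteridine synthesis, 4511 bp upstream of tud. Replicate 2 gave 17.9 (rank 6387) within 100 bp. Replicate 3 had its nearest counterpart at chr2R:21178705-21179160, with a signal of 23.4 and rank 3306. At the tud promoter 2 overlapping candidates were listed. The upstream one, 24 bp before the TSS, had a signal of 31.1 (rank 6760, q = 0.0490), with 17.5 (rank 6666) in replicate 2 and no match in replicate 3. The downstream one, 176 bp after the TSS in the 5' UTR, had 28.4 (rank 8053), with 8.91 (rank 23342) in replicate 2 and 18.3 (rank 5473) in replicate 3. The replicates thus put the stronger signal at different summits of this promoter. The tRNA gene tRNA:Gly-GCC-1-13 starts 466 bp from the tud TSS and tRNA:Trp-CCA-2-6 starts 573 bp from it. A pooled candidate in an intron of the downstream gene Lapsyn (chr2R:21194067-21194530) had a signal of 33.3 (rank 5951), with 21.2 (rank 4610) in replicate 2 and no match in replicate 3.

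Of the genes that act in the pole cells, nos, which encodes the translational repressor Nanos (chr3R:19157238-19160202), had 10 pooled candidates, 5 of them with a q-value of at most 0.05. It also had the densest window, with 0.772 candidates per kb. All candidates over the total window length gave 0.449 for the 10 genes and 0.320 for all genes, values in which long windows weigh most. Its IDR region (chr3R:19162153-19162616, signal 68.2, rank 1568) lay 85 bp from the common TSS of CG42359 and Nsun5, an RNA methyltransferase gene, and 5147 bp downstream of the nos TSS. The signal was 37.9 (rank 1452) in replicate 2 and 28.0 (rank 2307) in replicate 3. That is above the yardstick in replicate 2 and slightly below it in replicate 3.

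The nos promoter itself had a candidate (chr3R:19156634-19157097, signal 47.8, rank 3127, q = 4.80e-04) with its summit 372 bp upstream of the nos TSS and 54 bp from a TSS of CG11779, in the 5' UTR of that gene. CG11779 runs on the opposite strand, overlaps nos and has a TSS 221 bp from that of nos. The summit thus lies within 500 bp of a TSS of both genes, and that of CG11779 is the nearer. Which gene the region serves was not tested, and the own-promoter values of nos given here are those of this shared region. Replicate 2 had a signal of 21.5 (rank 4479) and replicate 3 a signal of 35.5 (rank 1438). Here replicate 3 was the higher, whereas at Nsun5 replicate 2 was, so for nos too the strong regions of the replicates lay at different positions. The same order was seen at the CG5835 promoter (chr3R:19153427-19153890, signal 56.4, rank 2286), where replicate 2 had 24.8 (rank 3408) and replicate 3 had 34.3 (rank 1541). Downstream, the promoter of sqz, a zinc finger factor gene of neurons, had a signal of 42.3 (rank 3889), with 23.1 in replicate 2 and 21.3 in replicate 3, and an intron of sqz had 38.4 (rank 4609). Inside nos 2 intronic candidates were weak, with signals of 21.7 (rank 13481) and 13.7 (rank 29728).

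The gene pgc encodes a small protein that blocks transcription elongation in pole cells (chr2R:22330200-22332813). It had 3 pooled candidates, none with a q-value of at most 0.05, and none within 500 bp of either of its 2 TSSs. The strongest (chr2R:22325001-22325464, signal 21.8, rank 13388) lay at a TSS of Gp150, 4967 bp upstream. Another, in a coding exon of Liprin-gamma downstream, had a signal of 17.7 (rank 19674). The one inside the gene (signal 13.9, rank 29152) fell in a coding exon of T3dh, an alcohol dehydrogenase gene on the opposite strand whose start lies 99 bp from the second pgc TSS. Replicate 2 had no candidate in the window. Replicate 3 had 1, with a signal of 16.4 and rank 6869, matching the Liprin-gamma summit. CG34207 and CG34208 start 480 and 955 bp from pgc.

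Of the piRNA pathway genes, aub, which encodes the Argonaute protein Aubergine (chr2L:10997819-11001476, minus strand), had 4 pooled candidates, of which 1 was in the IDR list. That region (chr2L:11003908-11004371, signal 58.0, rank 2161 of 2177) lay 13 bp from the TSS of RpL9, which encodes a protein of the large ribosomal subunit, and 2664 bp upstream of aub. Its signal was 34.2 (rank 1792) in replicate 2 and 24.1 (rank 3095) in replicate 3, so replicate 2 was above its yardstick and replicate 3 below. The candidate near the aub TSS (chr2L:11001053-11001516, in a coding exon) had a signal of 17.3, rank 20536 and q = 0.499. It was weak in both replicates, with 7.94 (rank 27954) in replicate 2 and 7.72 (rank 28749) in replicate 3. The nearest coding TSS to that of aub is that of lectin-33A, 596 bp away.

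The gene piwi, whose nuclear Argonaute protein silences transposons (chr2L:10982205-10987420, minus strand), had 2 pooled candidates, the fewest together with zpg, and its strongest signal was the lowest of the 10 genes. The stronger (chr2L:10987726-10988189, signal 19.0, rank 17446, q = 0.415) lay in a coding exon of CG12253, 152 bp from the TSS of that gene, which faces away from piwi and starts 386 bp from its TSS. The weaker lay in a piwi intron, with a signal of 16.4 and rank 22410. Replicate 2 had 9 candidates in the window, with signals from 8.63 to 12.9 (best rank 12154), and replicate 3 had none. No region of the piwi window was thus listed in both replicates.

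Among the genes of germ cell differentiation, bam, the switch gene that sends stem cell daughters into cyst divisions (chr3R:25243039-25245109, minus strand), had the strongest region of all 10 windows. It (chr3R:25247408-25247674, signal 317, rank 56) lay 2409 bp upstream of bam and 4 bp from the TSS of RpS27, which encodes a protein of the small ribosomal subunit, in a promoter that also serves Nup37, a nuclear pore gene on the other strand, and the intronic RNA sisRNA:CR46364. Replicate 2 gave a signal of 173 (rank 48) and replicate 3 a signal of 139 (rank 69), both far above the yardstick. A promoter farther upstream, of the nuclear pore gene Nup358 (chr3R:25249115-25249578), had 51.7 (rank 2699), with 27.6 (rank 2751) in replicate 2 and 23.4 (rank 3289) in replicate 3. Near the bam TSS the values were of another order. The candidate there (chr3R:25244650-25245113, 227 bp after the TSS in a coding exon) had a signal of 19.9, rank 15922 and q = 0.370, with 15.5 (rank 8571) in replicate 2 and no match in replicate 3.

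The gene bgcn, which encodes the partner of Bam, an RNA helicase-like protein (chr2R:23853270-23858921, minus strand), was the only one of the 10 with an IDR region at its own promoter. The summit of that region (chr2R:23858709-23858838, signal 149, rank 311) lay in the 5' UTR, 133 bp after the TSS, and no other gene had a TSS within 500 bp of it. Replicate 2 gave a signal of 72.5 (rank 392) and replicate 3 a signal of 71.0 (rank 316), and the summits were 16 and 2 bp from the pooled one. In signal, though not in rank or summit position, the replicates were closer to each other here than at the members' other IDR regions. A stronger IDR region in the window (chr2R:23850273-23850553, signal 291, rank 66) lay 8519 bp downstream of the bgcn TSS, 101 bp from the TSS of eIF6, which encodes a ribosome biogenesis factor, in an intron of ytr. The antisense RNA asRNA:CR45928 also starts within 500 bp of that summit. It had a signal of 165 (rank 54) in replicate 2 and 122 (rank 84) in replicate 3. Inside bgcn, the nested gene Pym, known for its part in exon junction complex recycling, had a candidate 13 bp from its TSS (chr2R:23856717-23857180, signal 41.7, rank 3992). The replicates differed there, with 30.6 (rank 2277) in replicate 2 and 13.0 (rank 11175) in replicate 3. Upstream, the promoter of TBPH, the fly TDP-43 gene, had a signal of 30.1 (rank 7227).

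The gene zpg, which encodes a germline innexin (chr3L:6604366-6606032, minus strand), had 2 pooled candidates, and the stronger was at its own promoter. It (chr3L:6605841-6606304, signal 50.3, rank 2828, q = 1.63e-04) had its summit 41 bp upstream of the zpg TSS. Rexo5, an RNA exonuclease gene on the opposite strand, has a TSS 147 bp from that of zpg, and the summit lies in an intron of Rexo5. The signal was 29.6 (rank 2419) in replicate 2 and 19.1 (rank 4961) in replicate 3, below the yardstick in both, and the summits were within 3 bp of the pooled one. The other candidate, at the promoter of axed and of the non-coding RNA lncRNA:CR45418, had a signal of 25.7 (rank 9761).

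**Figure D2:**
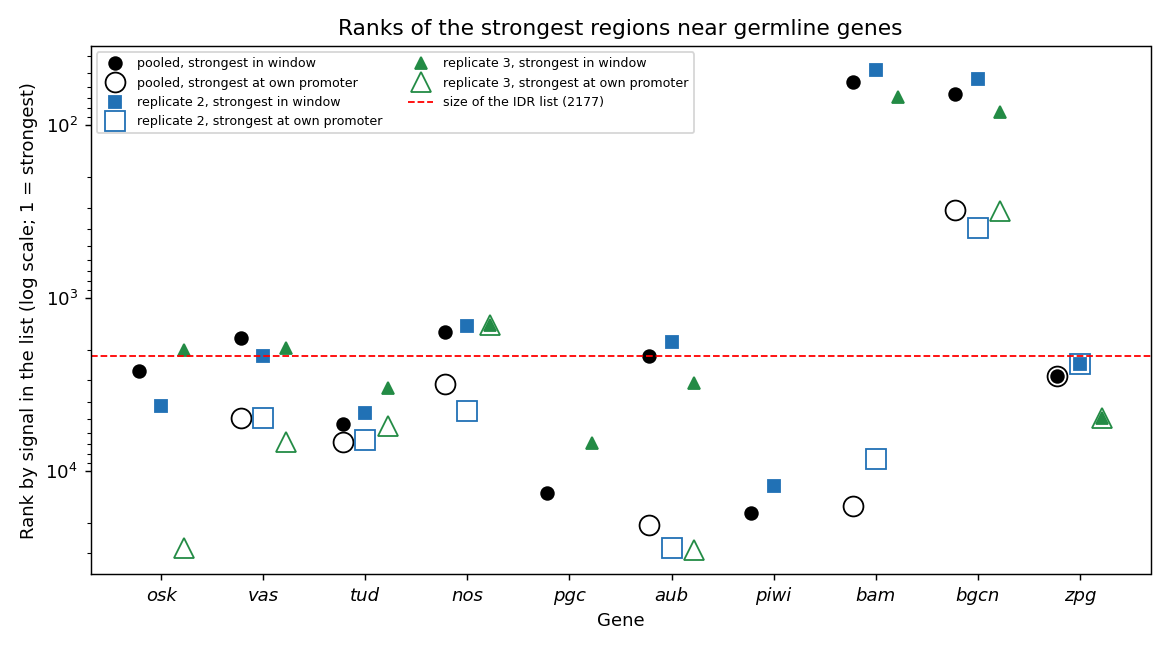
For each gene the y axis gives the rank by signal (log scale, 1 strongest) of its strongest region in the window (filled) and within 500 bp of its own TSS (open), in the pooled list (circles), replicate 2 (squares) and replicate 3 (triangles); the dashed line marks rank 2177, the size of the IDR list. Among the open symbols, those of bgcn (ranks 311, 392 and 316) and that of nos in replicate 3 (rank 1438) lie above the line.

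Set in order by the pooled signal at the own promoter, bgcn (149) came first, followed by zpg (50.3), nos (47.8), vas (37.1), tud (31.1), bam (19.9) and aub (17.3), and osk, pgc and piwi had none. The replicates gave no common order for zpg and nos: zpg was above nos in replicate 2 (29.6 and 21.5) and below it in replicate 3 (19.1 and 35.5). The same held for vas and tud, with 20.4 and 17.5 in replicate 2 and 16.4 and 18.3 in replicate 3, while zpg and nos were above vas in both. The step from bgcn to the next gene held in both replicates, in which the lowest value of bgcn was 71.0 and the highest of any other member 35.5. The median over the 7 genes was 37.1, beside 31.0 over the 7437 genes with such a candidate. As a percentile of those genes, bgcn stood at 96.6, zpg at 74.7, nos at 72.5, vas at 60.2, tud at 50.1, bam at 21.1 and aub at 12.7. Measured over the whole window, bam (98.5) and bgcn (98.3) led, and pgc (15.1) and piwi (9.55) came last among 12032 genes with a candidate. For bam the percentile thus went from 98.5 in the window to 21.1 at its own promoter.

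**Figure D3:**
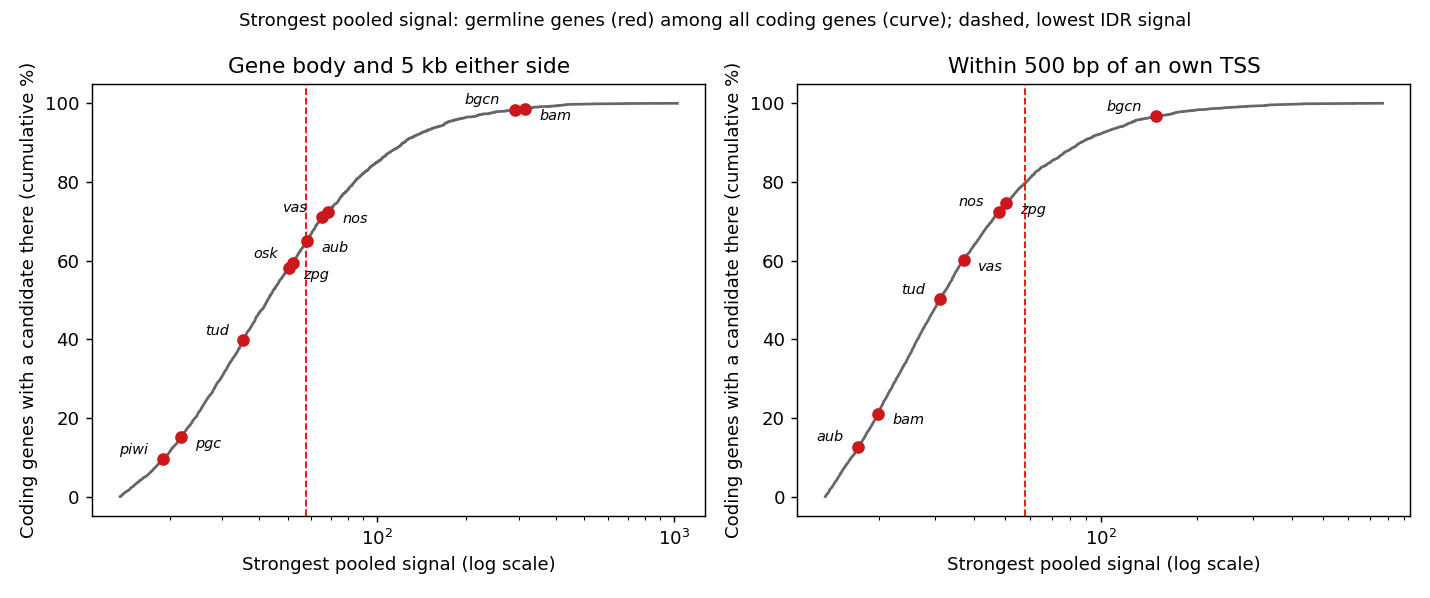
The curves give the cumulative percentage of coding genes against the strongest pooled signal (log scale) in the window (left) and within 500 bp of an own TSS (right), over genes with a candidate there; red dots are the germline genes and the dashed line is 57.8, the lowest IDR signal. On the left 5 genes lie at or right of the line, and on the right 1 does, bgcn.

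All 6 IDR regions had a candidate within 100 bp in both replicates. By rank, those of the RpS27 and eIF6 promoters and that of the bgcn promoter stood among the 2177 strongest in both replicates. Those at Nsun5 and RpL9 did so in replicate 2 only. That in the ck intron did so in neither by its matched summits, though an overlapping region of replicate 3 had rank 1950. The candidates ranked next below the IDR list were those at CG5835 (56.4, rank 2286), pyd (52.0, rank 2661), Nup358 (51.7, rank 2699) and zpg (50.3, rank 2828).

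**Figure D4:**
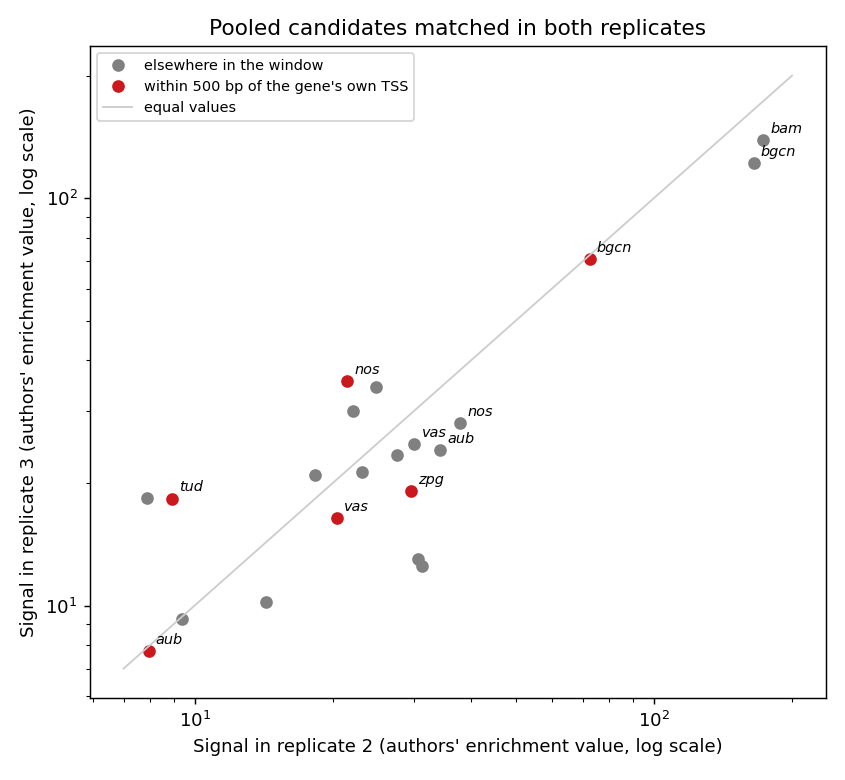
Each point is 1 of the 21 pooled candidates of the 10 windows with a summit within 100 bp in both replicates, with the signal in replicate 2 on the x axis and in replicate 3 on the y axis (both log scales); red points lie within 500 bp of the gene's own TSS and the line marks equal values. The regions at RpS27 (bam window), eIF6 and bgcn stand apart at the upper right. Those at vig and Pym, with 31.2 and 30.6 in replicate 2, lie well below the line. Well above it lie those at axed (7.89 in replicate 2, 18.4 in replicate 3) and downstream of the tud TSS (8.91 and 18.3).

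Motifs were searched as fixed letters, read on either strand, in the 100 bp to each side of a summit. The GCM octamer, the known binding site of the family, was found at 0 of the 67 candidates, against 1.54% of all pooled candidates and 0.781% of IDR regions. Within 250 bp it was found at 2, both outside the members' own promoters. The share of all candidates was not taken at 250 bp, so these 2 cannot be set against 1.54%. One was ATGCGGGC, starting at -177 bp from the summit at CG5835 in the nos window, where a negative distance is toward lower coordinates. The other was ATACGGGC, starting at -138 bp from a weak summit (signal 16.5, rank 22263) in a Lapsyn intron in the tud window. The DRE (TATCGATA) was found at 3 candidates, those at Nsun5, eIF6 and Pym, against 1.67% of all candidates and 4.04% of IDR regions. The GAGA factor motif (GAGAGAG) was found at 5 candidates, against 4.12% of all candidates and 5.51% of IDR regions. These lay at ScsbetaA, sqz, TBPH, the piwi intron and the ck intron. The ck candidate with the motif (signal 37.1, rank 4923) is not the IDR region of that intron, which lacks it within 100 bp. The letters searched for M1BP (GGTCACACT), CTCF (AGGTGGCGC) and Zelda (CAGGTAG) were found at 0 of the 67, against 1.09%, 0.407% and 1.37% of all candidates. None of the members' own promoter candidates held any of the 6 motifs within 100 bp, and a lack of these letters says nothing about the binding of a factor.

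A further 67 genes were taken in 5 lists, those of germline development and that of the other innexins. Of these, 13 (19.4%) had an IDR region with its summit at most 1 kb from a TSS, against 12.7% of all protein-coding genes. In the body or within 5 kb, 28 (41.8%) had one, against 30.4%. The 7 other innexins supplied 2 of the 13 and 4 of the 28. Neighbouring genes can share a summit, so the genes of a list are not independent counts. The IDR summit near Inx7 (chrX:6993956) also lay in the windows of its neighbours ogre and Inx2. The lists are described by counts, and no test of a list was made. Gene length was not matched, and a longer window takes in more genome. The window of brat, which had such a summit, was 55.9 kb, and that of pum, which had none, 181 kb. The median over all genes was 12.2 kb. In germ plasm assembly and RNA localisation the numbers were 4 (23.5%) and 5 (29.4%) of 17. The 4 were egl, a dynein adaptor gene (98.0, with 65.0 in replicate 2 and 37.4 in replicate 3), orb, a translational regulator gene (83.9, with 41.6 and 37.3), Tm1, a tropomyosin gene (61.5, with 32.5 and 24.8), and mago, an exon junction gene (60.3, with 34.0 and 24.1). The summits at orb, mago and Tm1 also lie within 500 bp of a TSS of Cdc16, Tmtc3 and CG45218, and that at egl of no other gene.

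For the 26 piRNA pathway genes the numbers were 3 (11.5%) and 9 (34.6%), against the same 12.7% and 30.4% of all genes. They were papi, a Tudor-domain gene (144, with 80.6 in replicate 2 and 64.9 in replicate 3), cuff (83.7, with 51.3 and 31.8, shared with CG13185) and the helicase gene armi (80.1, with 42.1 and 39.6, nearer to eIF5B and 681 bp from armi). For the germline stem cell and cyst list the numbers were 3 and 6 of 12, with brat (166, with 92.8 and 77.5), hts (134, with 67.9 and 60.7) and Sxl (122, with 77.0 and 46.6). Of 5 germ cell migration genes, wun, a lipid phosphatase gene, had a summit that close (127, with 53.3 and 60.2), and 4 had one in the window. Of the 7 other innexins, the family of zpg, ogre (88.8, with 56.7 and 32.6) and Inx7 (69.3, with 30.0 and 40.4) had one at that distance, and 4 in the window. Several of these genes, such as brat, hts, Tm1 and the innexins, are also known to act in somatic tissues.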

How the data were processed

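Gcm2-GFP ChIP-seq of 1 group with 2 biological replicates was analysed from the dm6 region lists: 1 list per replicate, 1 pooled and 1 IDR list. Per the deposited file lists, the authors made the candidate lists from alignments and a control file, and the IDR list from the 3 candidate lists. The choice of aligner, peak caller and IDR cutoff was not given in the sources used here. As signal, the authors deposited an enrichment value per region on an unstated scale, and the deposited −log10 q-value was converted to a q-value. Read depth is unknown, so no interval could be given. The dm3 lists were not used here.

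Summits (region start plus summit offset) were joined to Ensembl 115 genes, after checking that region ends lay within the RefSeq Release 6 chromosomes, and coordinates are dm6, counted from 1. A promoter is within 500 bp of a TSS, and summits within 100 bp counted as matched between lists. The gene nos is named nanos in the annotation; the nitric oxide synthase gene Nos was left out. Named are all 10 members, genes starting within 500 bp of a named summit or within 1 kb of a member's TSS or holding a named summit, and up to 4 genes per germline list with an IDR summit within 1 kb. Comparisons with all coding genes are descriptions, with no test. Members and lists were chosen with earlier results of these data known. Alternatives changed the flank, the list, the number of regions, the q-value and the distances. Python 3.11.15, pandas 2.3.3, numpy 2.4.6 and matplotlib 3.10.9 were used, and the assignment code was tested on simulated data.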

Additional observations from a re-analysis of the deposited data

How the results depend on the processing

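The count of 5 genes with an IDR summit (30.4% of all protein-coding genes) became 1 with the gene body alone (7.08% of all genes), 1 with a 1 kb flank (17.0%), 6 with 10 kb (42.2%) and 2 with the 1088 strongest IDR regions (17.9%). With the 1 kb flank the members' share was thus below that of all genes, but it rested on 1 gene, bgcn, and says little about the members. The count was 5 with the strongest regions of replicate 2 (30.4% of all genes) or of replicate 3 (29.8%) in its place. In replicate 3, however, osk (rank 2006) took the place of aub (rank 3095). The 6 IDR summits became 1 with the gene body alone, 1 with a 1 kb flank, 10 with 10 kb and 3 with those 1088, and ranged from 6 to 7 when 1 replicate was left out. The 4 genes with a strong region in both replicates (24.0%) became 1 (5.27%), 1 (12.8%) and 6 (35.1%) with these flanks, 8 with the 5000 strongest regions (42.3%) and 2 with the 1000 strongest (13.4%). The 8 genes with q of at most 0.05 (58.5%) became 2 with the gene body alone (18.1%), 5 with a 1 kb flank (38.1%) and 9 with 10 kb (71.0%), and 7 at a q of 0.01 (48.7%). The 7 genes with a candidate near their own TSS (53.3%) became 6 within 250 bp (42.0%) and 9 within 1000 bp (62.6%). With the list of replicate 2 alone these counts were again 8 (59.7%) and 7 (52.6%), and with that of replicate 3 also 8 (57.3%) and 7 (51.8%). In replicate 3, however, the 7 held osk (signal 7.87, rank 27962) and not bam. The GCM octamer count of 0 became 2 in a window of 250 bp, for which no share of all candidates was taken. The wider flanks take in more genome by construction. No paired analysis was possible because there is 1 group. Depth limits cannot be given, since read depth is unknown.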
